A study of Mus musculus with 7 samples.

Results

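The 10 genes described here build and control MHC class II, the cell surface complex that shows peptides to CD4 T cells. They were chosen by name and found by Ensembl identifier among the 22629 rows of a table of RNA-seq counts. They comprise the classical chains H2-Aa, H2-Ab1 and H2-Eb1, the invariant chain Cd74, the peptide editor genes H2-DMa, H2-DMb1 and H2-DMb2, the editor's inhibitor genes H2-Oa and H2-Ob, and the transcriptional regulator Ciita.

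The 7 samples were s/c tumors, each harvested 2 weeks after mouse PDA cells were placed under the skin of C57BL/6 mice. The cells came from a mouse pancreatic tumor, and all carried Cas9 and a scrambled guide that targets no gene (sgScramble). In 3 tumors (sgScramble tumors 1, 4 and 5) the labels name nothing more, and in 4 tumors (icOVA tumors 15, 16, 18 and 2) the cells also carried icOVA, an ovalbumin kept in the cytoplasm. Per the study's methods, mice were bought at 6 weeks of age and kept for 2 weeks before use. The icOVA cells held a doxycycline-inducible lentiviral vector, whose name also includes green fluorescent protein (GFP), and were sorted and cloned from single cells. Their hosts received doxycycline in the food from the day of inoculation. Whether the sgScramble cells of these tumors were a clone or a polyclonal line, and whether the hosts of the control tumors received doxycycline, is not stated. The paper describes icOVA cells grown as tumors with or without doxycycline. It does not say whether the control tumors came from such cells without doxycycline. The methods also give a larger inoculum for ovalbumin-inducible lines than for other s/c tumors. The antigen, any GFP made from the vector, cloning, inoculum and diet therefore cannot be told apart. Total counts ran from 30904855 to 37510591 per tumor. The OVA transgene, which checks the labels, had 151, 85 and 92 counts in sgScramble tumors 1, 4 and 5, against 6871, 10750, 3413 and 7989 counts in icOVA tumors 15, 16, 18 and 2.

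Class II molecules are made in the endoplasmic reticulum, where the invariant chain fills their groove and directs them to endosomes. There proteases cut the invariant chain down to a short remnant, which H2-DM exchanges for peptides of proteins taken up by the cell, and H2-O, found mainly in B cells and some dendritic cells, restrains H2-DM. Macrophages, dendritic cells and B cells carry class II constitutively, and many other cells, carcinoma cells among them, can be made to carry it by interferon gamma, which acts through Ciita.

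Together the 10 class II genes took 0.469%, 0.626% and 0.562% of all counts in sgScramble tumors 1, 4 and 5. In icOVA tumors 15, 16, 18 and 2 they took 0.694%, 0.696%, 0.729% and 0.708%. Every icOVA tumor was above every sgScramble tumor in this share, which rests mostly on Cd74 and the classical chains. All 10 genes passed the filter on low counts and all had a log2 fold change above 0, but only H2-DMa passed the test across the whole table (edgeR's quasi-likelihood test, Benjamini-Hochberg adjusted p below 0.05). That is 1 of 10 genes higher, against 3.36% of the 17489 genes tested, and 0 of 10 lower, against 2.54%. At an unadjusted p below 0.05 in the same edgeR fit, 6 of the 10 were higher and 0 lower, beside 2342 higher and 2421 lower of all 17489 genes. DESeq2 called 5 of the 10 higher and 0 lower, and limma-voom called 0 either way, so the number of calls depended on the tool. Over all 17489 genes, DESeq2 called 1558 higher and 1278 lower, limma-voom 518 and 423, and edgeR 588 and 444, so that counts by DESeq2 are to be read against more calls in the whole table, here and below. Separately, 6 of the 10 genes were higher in every icOVA tumor than in any sgScramble tumor, against 11.3% of all genes tested. The median log2 fold change of the 10 genes was 0.37, with a range of 0.17 to 0.54, and that of all genes tested was -0.0048. In bulk tumors, more cells of a type and more RNA per cell cannot be told apart, and this holds for each value below.

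**Figure D1:**
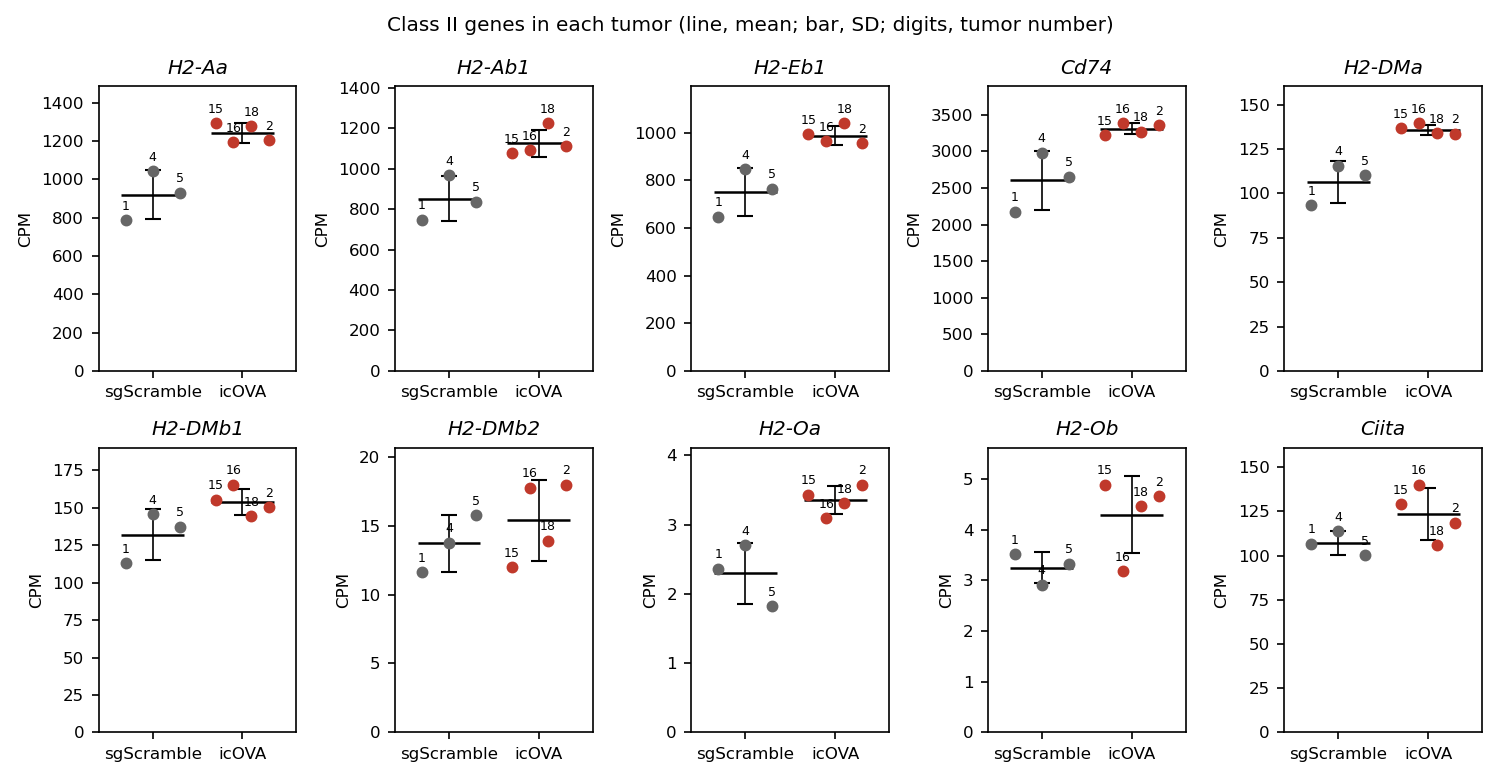
CPM of each of the 10 class II genes in the 3 sgScramble tumors (gray) and 4 icOVA tumors (red), with the tumor number beside each point, the group mean as a line and the SD as a bar. The groups do not overlap for H2-Aa, H2-Ab1, H2-Eb1, Cd74, H2-DMa and H2-Oa, and sgScramble tumor 1 is the lowest of the 7 for H2-Aa, H2-Ab1, H2-Eb1, Cd74, H2-DMa, H2-DMb1 and H2-DMb2.

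The classical chains form the surface molecule. H2-Aa encodes the alpha chain of I-A, the class II molecule of C57BL/6 mice, and had 787, 1044 and 931 CPM (TMM-scaled) in sgScramble tumors 1, 4 and 5, against 1294, 1196, 1279 and 1204 CPM in icOVA tumors 15, 16, 18 and 2. The lowest icOVA tumor, 16, was above the highest sgScramble tumor, 4, and the icOVA tumors lay closer together than the controls. Its group means were 921 ± 129 CPM (SD, n = 3) and 1243 ± 50.5 CPM (SD, n = 4), and edgeR's test put the log2 fold change at 0.43 (SE 0.11) with 0.0582 as adjusted p. H2-Ab1, which encodes the beta chain that pairs with H2-Aa, had 748, 969 and 836 CPM in the sgScramble tumors and 1076, 1091, 1225 and 1110 CPM in the icOVA tumors. Here tumor 18 was the highest icOVA tumor and the groups again did not overlap. H2-Ab1 had a log2 fold change of 0.40 (edgeR, SE 0.11 and adjusted p 0.0670). H2-Eb1 encodes the beta chain of I-E, whose alpha chain C57BL/6 mice do not make, so that its RNA yields no I-E at the surface. It had 647, 847 and 764 CPM in the sgScramble tumors and 992, 963, 1039 and 955 CPM in the icOVA tumors, with no overlap. Its log2 fold change was 0.39 (edgeR, SE 0.10 and adjusted p 0.0667). The 3 chains thus differed between the groups by nearly the same factor, and with all 7 tumors none passed in edgeR's test, while DESeq2 called all 3, with adjusted p values of 0.00123, 0.00309 and 0.00297 for H2-Aa, H2-Ab1 and H2-Eb1. The call thus depended on the tool, and also on the tumors included. The control with the most class II RNA was sgScramble tumor 4. Without it, the adjusted p values of H2-Aa, H2-Ab1 and H2-Eb1 from edgeR were 0.0365, 0.0383 and 0.0418. In that fit 862 genes of the whole table were called higher and 681 lower. With any other single tumor left out, none of the chains passed in edgeR's test. The adjusted p of H2-Aa in those fits ran from 0.0593 to 0.202.

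The chains kept a nearly fixed ratio to each other in every tumor. The log2 CPM of H2-Aa minus that of H2-Ab1 was 0.07, 0.11 and 0.15 in sgScramble tumors 1, 4 and 5, against 0.27, 0.13, 0.06 and 0.12 in icOVA tumors 15, 16, 18 and 2. The 2 groups overlapped in this difference, and tumor 15 had the largest. The same difference of H2-Ab1 from H2-Eb1 was 0.21, 0.19 and 0.13 in the sgScramble tumors and 0.12, 0.18, 0.24 and 0.22 in the icOVA tumors, again with overlap.

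Cd74, the invariant chain that occupies the groove of new class II molecules, had the highest CPM of the 10 genes, with 2178, 2983 and 2654 CPM in sgScramble tumors 1, 4 and 5, against 3225, 3387, 3268 and 3356 CPM in icOVA tumors 15, 16, 18 and 2. The icOVA tumors were tightly grouped and all above the controls, whose highest value was again that of tumor 4. The log2 fold change was 0.35 (SE 0.12) and did not pass the threshold (edgeR, adjusted p 0.123). Relative to the classical chains, the difference in log2 CPM of Cd74 was 1.63 ± 0.04 (SD, n = 3) in sgScramble tumors and 1.57 ± 0.08 (SD, n = 4) in icOVA tumors, with overlap between the groups.

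H2-DM is the editor that releases the invariant chain remnant and favors tightly bound peptides. H2-DMa, its alpha chain, had 93.3, 115.7 and 110.4 CPM in sgScramble tumors 1, 4 and 5, against 136.8, 139.6, 133.9 and 133.7 CPM in icOVA tumors 15, 16, 18 and 2. The icOVA tumors were within a narrow band above all 3 controls. Of the 10 genes, H2-DMa was the 1 that rose in edgeR's test, with a log2 fold change of 0.35 (edgeR, SE 0.08 and adjusted p 0.0493). The size of this difference was no larger than that of the classical chains, and its spread was smaller. The call stood close to the threshold. It was lost when sgScramble tumor 1 or 5 or icOVA tumor 15, 16, 18 or 2 was left out, with adjusted p values from edgeR of 0.160, 0.165, 0.128, 0.0616, 0.0566 and 0.102, and was kept without sgScramble tumor 4. In the fits that lost it, in the same order, the log2 fold change was 0.27, 0.39, 0.36, 0.34, 0.36 and 0.37. Over the whole table these fits called 0, 0, 0, 1014, 615 and 6 genes higher and 0, 0, 0, 716, 492 and 2 lower. The annotated H2-DMa gene overlaps the opposite-strand gene Brd2, and the strand setting of the counting is not given in the sources used here, so reads of the overlap may belong to either gene.

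H2-DMb1 and H2-DMb2 encode beta chains of H2-DM. H2-DMb1 had 113.0, 145.7 and 137.3 CPM in the sgScramble tumors and 155.4, 165.5, 144.4 and 150.5 CPM in the icOVA tumors. Tumor 18 was just below sgScramble tumor 4, so the groups overlapped, and the log2 fold change of 0.22 (SE 0.10) did not pass (edgeR, adjusted p 0.194). Without sgScramble tumor 1 the log2 fold change of H2-DMb1 was 0.12. H2-DMb2 was counted far less often, with 11.6, 13.8 and 15.8 CPM in the sgScramble tumors and 12.0, 17.7, 13.9 and 17.97 CPM in the icOVA tumors. Its groups overlapped over most of their range, with icOVA tumor 15 below sgScramble tumors 4 and 5. H2-DMb2 had a log2 fold change of 0.17 (edgeR, SE 0.18 and adjusted p 0.576). Of the 76-base stretches of the H2-DMb1 transcripts, the length of a read, 15.7% also occur in transcripts of H2-DMb2, and 15.9% of those of H2-DMb2 occur in transcripts of other genes, H2-DMb1 among them. The separate values of the pair are therefore uncertain. Summed to a single gene they had a log2 fold change of 0.22 (edgeR, SE 0.10 and adjusted p 0.205).

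H2-O, the inhibitor of H2-DM, was near the lower end of what these libraries measure. H2-Oa, its alpha chain, had 82, 89 and 57 counts in sgScramble tumors 1, 4 and 5, against 127, 108, 115 and 115 counts in icOVA tumors 15, 16, 18 and 2, which is 2.36, 2.70 and 1.82 CPM against 3.43, 3.09, 3.31 and 3.58 CPM. All icOVA tumors were above all controls, and sgScramble tumor 5 was the lowest. H2-Oa had the highest log2 fold change of the 10 genes, 0.54, but also a wide error (SE 0.18) and did not pass (edgeR, adjusted p 0.112). H2-Ob, the beta chain, had 3.51, 2.92 and 3.33 CPM in the sgScramble tumors and 4.89, 3.18, 4.46 and 4.66 CPM in the icOVA tumors. Tumor 16 lay among the controls and the other icOVA tumors lay above them, so that the groups overlapped through that tumor. The log2 fold change was 0.40 (edgeR, SE 0.19 and adjusted p 0.223). The annotated antisense gene BC051537 overlaps H2-Oa, and Gm20513 overlaps H2-Eb1 in the same way.

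Ciita, the coactivator that switches on class II genes, had 106.8, 113.7 and 100.1 CPM in sgScramble tumors 1, 4 and 5, against 128.9, 140.1, 105.8 and 118.6 CPM in icOVA tumors 15, 16, 18 and 2. Tumor 18, which had the highest H2-Ab1 and H2-Eb1 of all tumors, had the lowest Ciita of its group and lay below sgScramble tumors 1 and 4. The log2 fold change was 0.21 (edgeR, SE 0.10 and adjusted p 0.238).

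The accessory genes were then set against the classical chains within each tumor, as the mean log2 CPM of the accessory genes minus that of H2-Aa, H2-Ab1 and H2-Eb1. These differences were given no test. For the H2-O genes the difference was -7.95, -8.37 and -8.38 in sgScramble tumors 1, 4 and 5, against -8.07, -8.40, -8.24 and -8.03 in icOVA tumors 15, 16, 18 and 2. The groups overlapped almost fully, and their means of -8.23 ± 0.25 (SD, n = 3) and -8.18 ± 0.17 (SD, n = 4) were closer than the SD of either group. The icOVA mean minus the sgScramble mean was 0.05, and its direction depended on the tumors included. It was 0.19 without sgScramble tumor 1 and -0.03 without sgScramble tumor 5. For the H2-DM genes the difference was -3.86, -3.95 and -3.76 in the sgScramble tumors and -4.13, -3.86, -4.19 and -3.93 in the icOVA tumors. Tumors 15 and 18 had the least H2-DM RNA relative to the classical chains, and tumors 16 and 2 lay among the controls. For Ciita the difference was -2.76, -3.06 and -3.07 in the sgScramble tumors and -3.11, -2.94, -3.47 and -3.19 in the icOVA tumors, again with overlap, and tumor 18 was the lowest.

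Levels were compared between genes per length of annotated exons, as RPKM (CPM per kilobase). In icOVA tumors the order of the mean RPKM was Cd74 at 1971 ± 44.9, H2-Eb1 at 508 ± 19.6, H2-Ab1 at 438 ± 26.4, H2-Aa at 327 ± 13.3, H2-DMb1 at 91.6 ± 5.32, H2-DMa at 39.4 ± 0.816, Ciita at 12.9 ± 1.53, H2-DMb2 at 8.81 ± 1.68, H2-Oa at 2.38 ± 0.145 and H2-Ob at 0.799 ± 0.142 (SD, n = 4). The means of the sgScramble tumors followed the same order, from 1552 ± 241 RPKM for Cd74 to 0.604 ± 0.0566 RPKM for H2-Ob (SD, n = 3). The ranges of neighboring genes in this order were apart in both groups, except for H2-Eb1 and H2-Ab1 in the sgScramble tumors, which overlapped. Cd74 RNA thus exceeded that of the next gene, H2-Eb1, by a factor of 4.01 in sgScramble and 3.88 in icOVA tumors. The order of genes with long annotated models, such as H2-Ob at 5380 bases and Ciita at 9535 bases, depends on those models, because exons seldom used lower the value per length.

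Other genes of the pathway were read from lists by role. Over all these lists, 10 of 34 tested genes were higher at the threshold and 0 were lower, against 3.36% and 2.54% of all genes, and their median log2 fold change was 0.28. With an unadjusted p below 0.05 in edgeR's fit, 20 were higher and 2 lower, beside 2342 and 2421 of the 17489 genes. Without sgScramble tumor 1 or 5 or icOVA tumor 15 or 2, 0 of the 34 passed in edgeR's test, where 15, 13, 17 and 17 were higher and 2, 1, 2 and 2 lower at an unadjusted p below 0.05. In the same fits, 0, 0, 0 and 6 genes of the whole table were called higher and 0, 0, 0 and 2 lower, with 1616, 1540, 1768 and 2096 higher and 1471, 1396, 1647 and 1912 lower at an unadjusted p below 0.05, so the loss was not particular to this pathway. The edgeR calls of single genes below were each lost without any of these 4 tumors, and DESeq2 and limma-voom were not run with a tumor left out. The log2 fold changes of those genes in these fits stayed positive, the lowest being 0.43, that of Ctsz without sgScramble tumor 1. Of the 9 partners and upstream factors of Ciita, 0 passed in edgeR's test, with 3 higher and 1 lower at an unadjusted p below 0.05. DESeq2 gave 1 higher, Creb1, and 1 lower, Rfxank, and limma-voom gave 0. The median log2 fold change of this list was 0.0078.

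The endosomal enzymes that prepare the groove and the peptides were higher in 4 of 9 genes by edgeR's test and in 5 of 9 by DESeq2 or limma-voom. Ctss, the protease that makes the final cuts in the invariant chain in macrophages, dendritic cells and B cells, had 756, 898 and 750 CPM in sgScramble tumors 1, 4 and 5, against 1314, 1290, 1457 and 1138 CPM in icOVA tumors 15, 16, 18 and 2. All icOVA tumors were above all controls, and Ctss rose by a log2 fold change of 0.70 (edgeR, SE 0.11 and adjusted p 0.0271). Ifi30, a thiol reductase that opens disulfide bonds of antigens, rose by 0.58 (SE 0.10), the protease gene Ctsd by 0.52 (SE 0.11) and the carboxypeptidase gene Ctsz by 0.43 (SE 0.06) on the log2 scale, with adjusted p values from edgeR of 0.0284, 0.0379 and 0.0235. Without sgScramble tumor 4, Ctsd also missed it (adjusted p of 0.0629 in edgeR). Ctsb, the most abundant enzyme of the list by CPM, had a log2 fold change of 0.68 (SE 0.16) and an adjusted p of 0.05003 from edgeR, just above the threshold. The median log2 fold change of the list was 0.43.

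Of 3 genes that set the lifetime of class II at the surface, 1 passed in edgeR's test. March1, a ubiquitin ligase that sends class II for degradation in antigen-presenting cells, had 18.9, 28.0 and 17.4 CPM in the sgScramble tumors and 44.0, 37.97, 39.6 and 40.8 CPM in the icOVA tumors. It was higher in all icOVA tumors and rose by a log2 fold change of 0.92 (edgeR, SE 0.16 and adjusted p 0.0287), a larger difference than that of any class II gene above. Its relative March8, the most abundant gene of the list by CPM, had 92.9, 83.1 and 101.4 CPM in the sgScramble tumors and 69.3, 77.9, 63.0 and 68.9 CPM in the icOVA tumors. Every icOVA tumor was below every control, with a log2 fold change of -0.41 (SE 0.10), and the adjusted p of 0.05003 from edgeR was just above the threshold. March8 passed as lower with DESeq2, when scaled by library totals or upper quartiles, with at least 10 counts required in every tumor, and without sgScramble tumor 4 or icOVA tumor 16. Both receptors for class II on T cells were higher with edgeR and DESeq2, and limma-voom called Lag3 alone. Cd4 had 4.78, 5.68 and 5.34 CPM in the sgScramble tumors and 14.3, 9.51, 21.6 and 11.8 CPM in the icOVA tumors, and Lag3, an inhibitory receptor that binds class II, rose by a log2 fold change of 1.17 (edgeR, SE 0.15 and adjusted p 0.0230).

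Class I genes, which present peptides to CD8 T cells, gave a comparison. Of 9 class I genes 1 was higher with edgeR or limma-voom and 5 with DESeq2. The gene called by edgeR was Psmb8, a subunit of the immunoproteasome that supplies class I peptides, with a log2 fold change of 0.58 (edgeR, SE 0.11 and adjusted p 0.0314). The median log2 fold change of the 9 was 0.27. B2m, the most abundant by CPM, had 3502, 3232 and 3657 CPM in the sgScramble tumors and 3624, 4188, 2961 and 3741 CPM in the icOVA tumors. Its groups overlapped, with icOVA tumor 18 the lowest of all 7, although that tumor was the highest for H2-Ab1 and H2-Eb1. The difference between class I and class II genes was not tested.

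**Figure D2:**
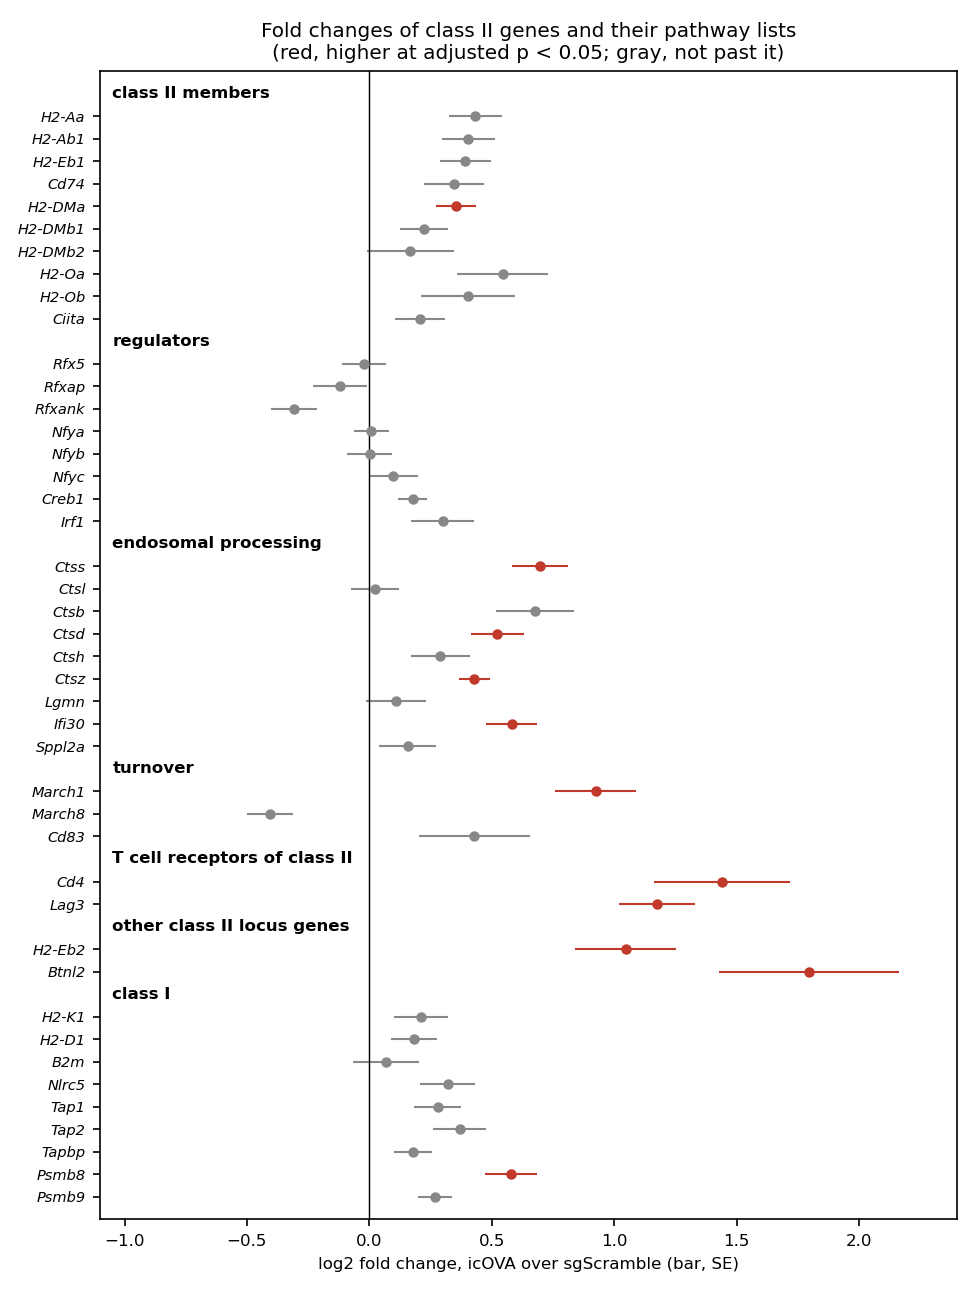
Log2 fold change of icOVA over sgScramble tumors, with its SE as a bar, for the 10 class II genes and the tested genes of the pathway lists, 1 of which is not drawn. Red points passed an adjusted p of 0.05 in edgeR's test, and of the 10 class II genes only H2-DMa did, while 10 of the others did.

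Of the class II genes, 8 of the 10 lie on chromosome 17 between H2-Oa, which starts at 34092340, and H2-Eb1, which ends at 34316674 on GRCm38, the build also called mm10 (GENCODE M21 annotation). Cd74 and Ciita lie elsewhere. From H2-Oa to H2-Ea, the annotation holds 23 genes, 14 of which were tested. The other 6 tested genes of this stretch, in order, are Brd2, Psmb9, Tap1, Psmb8, Tap2 and H2-Eb2. Brd2, a chromatin reader with no role in presentation, had a log2 fold change of 0.08 (edgeR, SE 0.07 and adjusted p 0.499), the lowest of the stretch. The peptide transporter genes Tap1 and Tap2 had log2 fold changes of 0.28 (SE 0.10) and 0.37 (SE 0.11), and Psmb9, beside Tap1, had 0.27 (SE 0.07), with adjusted p values from edgeR of 0.116, 0.0824 and 0.0623.

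H2-Eb2, a class II beta gene next to H2-Eb1, differed more than any other gene of the stretch, at low counts of 40 to 107 per tumor. It had 1.27, 1.22 and 1.41 CPM in sgScramble tumors 1, 4 and 5, against 2.38, 2.78, 2.24 and 3.33 CPM in icOVA tumors 15, 16, 18 and 2, with no overlap. H2-Eb2 rose by a log2 fold change of 1.05 (edgeR, SE 0.21 and adjusted p 0.0351), a call also lost without sgScramble tumor 4 (edgeR, adjusted p 0.0532). Btnl2, a butyrophilin gene farther along the class II locus, was also counted seldom, with 17 to 107 counts per tumor. It had 0.489, 0.972 and 0.544 CPM in the sgScramble tumors and 2.89, 1.43, 2.07 and 2.92 CPM in the icOVA tumors. All icOVA tumors were above all controls, and it rose by a log2 fold change of 1.80 (edgeR, SE 0.37 and adjusted p 0.0370). The pseudogene H2-Ea-ps, the nonfunctional I-E alpha gene of this strain, had no row among the counts and so could not be tested.

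**Figure D3:**
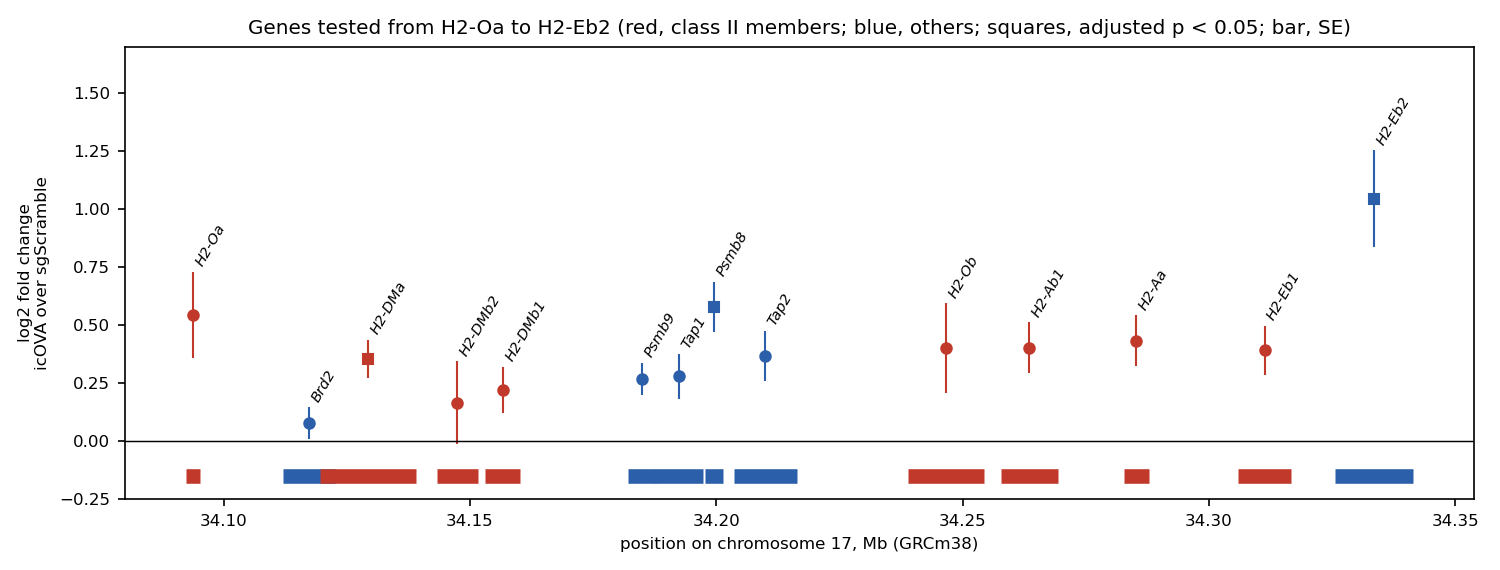
Log2 fold change of icOVA over sgScramble tumors, with its SE as a bar, for the 14 tested genes from H2-Oa to H2-Eb2, by position on chromosome 17 of GRCm38, with gene bodies drawn to scale below. Red marks the class II genes described here, blue the others, and squares those with an adjusted p below 0.05, which are H2-DMa, Psmb8 and H2-Eb2.

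Class II promoters are known for an X box and a Y box at a set spacing, which bind the RFX and NF-Y complexes. RefSeq promoter windows (GRCm38.p6, 250 bases before to 50 after the gene start) matched 7 of the 10 genes in 8 windows. No entry was matched for H2-Ab1, Cd74 and Ciita. The X core ACNGATG, on either strand, was in 5 of the 8 windows and in 9.85% of all 32851 windows, and the Y core ATTGG was in 7 of the 8 and in 37.4% of all. An X core followed within 40 bases by a Y core on the same strand was in 3 of the 8, those of H2-DMb1, H2-DMb2 and H2-Eb1, and in 0.253% of all windows. The X core starts 30 bases before the Y core in H2-DMb1 and H2-DMb2 and 29 bases before it in H2-Eb1 and H2-Eb2. The sequences below, 5′ to 3′ with these cores in capitals, are shown for the spacing, which is alike in H2-DMb2, H2-Eb1 and H2-Eb2. The stretches of H2-Aa and H2-Ob hold the Y core without those exact X letters before it, and the search would miss an X box with other letters. A link between these letters and the differences in RNA was not tested. The printed stretches lie at chr17:34145114-34145168 (H2-DMb2), chr17:34305763-34305817 (H2-Eb1), chr17:34325530-34325584 (H2-Eb2) and chr17:34238803-34238857 (H2-Ob) on the plus strand and at chr17:34287862-34287916 (H2-Aa) on the minus strand, all upstream of the RefSeq gene start.
H2-DMb2: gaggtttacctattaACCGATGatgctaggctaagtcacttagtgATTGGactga
H2-Eb1: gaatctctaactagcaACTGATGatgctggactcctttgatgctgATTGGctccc
H2-Eb2: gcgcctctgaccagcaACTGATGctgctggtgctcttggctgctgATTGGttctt
H2-Aa: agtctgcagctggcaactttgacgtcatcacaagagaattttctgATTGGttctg
H2-Ob: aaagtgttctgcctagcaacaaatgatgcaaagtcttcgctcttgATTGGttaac

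Markers of the cells that can carry class II were read beside these genes, and their part in the differences was not tested. Ptprc, which encodes CD45 of all leukocytes, had 132, 175 and 116 CPM in sgScramble tumors 1, 4 and 5, against 363, 258, 312 and 260 CPM in icOVA tumors 15, 16, 18 and 2. All icOVA tumors were above all controls, and Ptprc rose by a log2 fold change of 1.08 (edgeR, SE 0.18 and adjusted p 0.0271). Relative to Ptprc, the classical genes had a difference in mean log2 CPM of 2.46, 2.44 and 2.86 in the sgScramble tumors and 1.62, 2.06, 1.92 and 2.06 in the icOVA tumors. There was less RNA of the classical chains per Ptprc RNA in every icOVA tumor than in any control, and H2-Ob overlapped between the groups in this measure. With counts scaled to Ptprc in edgeR's fit, all 10 log2 fold changes turned negative, from -0.91 for H2-DMb2 to -0.52 for H2-Oa, and that of H2-DMa was -0.73 (edgeR, SE 0.24 and adjusted p 0.00814). This scaling takes up the rise of Ptprc itself. It lowers the log2 fold change of every gene by about 1.08, so that a gene alike in both groups also turns negative. The 10 values are less negative than that shift, and the adjusted p of H2-DMa takes in the same shift. How many genes of the whole table turn negative was not counted.

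Of 9 macrophage markers, 7 were higher and 0 lower at an unadjusted p below 0.05 with edgeR. After adjustment 6 were higher with DESeq2 (1558 of all genes), 3 with limma-voom (518 of all) and 2 with edgeR (588 of all), Cd68 with a log2 fold change of 0.82 (SE 0.16) and Mertk with 0.90 (SE 0.19), and the median of the list was 0.53 (adjusted p of 0.0360 and 0.0404 from edgeR). Mertk missed the threshold without icOVA tumor 18 (edgeR, adjusted p 0.0509), and these calls too were lost without sgScramble tumor 1 or 5 or icOVA tumor 15 or 2. The summed CPM of the list was 1089, 1485 and 1245 in the sgScramble tumors and 1892, 1468, 2233 and 1544 in the icOVA tumors, and C1qb was its most abundant gene. Tumor 16 was just below sgScramble tumor 4 in this sum, while it was above all controls for the classical chains. Relative to the macrophage markers, the mean log2 CPM of the classical genes was 3.09, 2.98 and 3.13 in the sgScramble tumors and 2.78, 3.11, 2.69 and 3.10 in the icOVA tumors. The groups overlapped, and tumors 15 and 18, with the highest sums of macrophage markers, had the least class II RNA relative to them.

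Of 9 dendritic cell markers, 6 were higher and 0 lower at an unadjusted p below 0.05 in edgeR's fit, and the median log2 fold change was 0.87. After adjustment 4 were higher with DESeq2 and 1 with edgeR or limma-voom, Siglech, a marker of plasmacytoid dendritic cells, with 1.35, 2.58 and 1.18 CPM in the sgScramble tumors and 6.00, 4.64, 7.36 and 6.00 CPM in the icOVA tumors (edgeR, adjusted p 0.0276 at a log2 fold change of 1.81 with SE 0.31). The summed CPM of the list was 95.1, 113.4 and 86.4 in the sgScramble tumors and 121.8, 102.2, 155.3 and 119.0 in the icOVA tumors, most of it from Itgax, whose log2 fold change was 0.05. Tumor 16 lay among the controls in this sum. Relative to this list the classical genes overlapped between the groups, with differences in mean log2 CPM of 7.65 ± 0.22 (SD, n = 3) and 7.32 ± 0.30 (SD, n = 4).

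B cell markers were close to the lower limit of counting. Of 8 listed, 5 were tested and 0 passed with edgeR, DESeq2 or limma-voom, also at an unadjusted p below 0.05, and Fcer2a and Cr2 had no count in at least 1 tumor. The summed CPM of the list was 3.22, 5.13 and 5.40 in the sgScramble tumors and 7.56, 6.16, 6.59 and 6.498 in the icOVA tumors, with Pax5 the most abundant. Each icOVA sum was above each control sum, but in tumor 16 Pax5 alone gave 4.21 CPM, and the mean log2 CPM of the list in that tumor, -1.51, was below the -1.43 and -0.75 of sgScramble tumors 4 and 5. In this mean, icOVA tumors 18 and 2, at -0.78 and -0.85, were also below sgScramble tumor 5. For H2-Ob, whose product is found mainly in B cells, the difference in log2 CPM from the B cell markers was 3.04 ± 0.55 (SD, n = 3) in sgScramble and 3.06 ± 0.11 (SD, n = 4) in icOVA tumors, and the groups overlapped.

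Of the 7 cancer cell markers, 0 passed with edgeR, DESeq2 or limma-voom, also at an unadjusted p below 0.05, and their summed CPM was 4891, 4672 and 4735 in the sgScramble tumors and 5024, 5235, 3094 and 4766 in the icOVA tumors, with Krt8 the most abundant. Tumor 18 of the icOVA group stood apart with the lowest sum. Relative to these markers, the mean log2 CPM of the classical genes was 1.01, 1.59 and 1.14 in the sgScramble tumors and 1.41, 1.45, 2.45 and 1.497 in the icOVA tumors, so that tumor 18 held the most class II RNA per cancer cell marker RNA. The other icOVA tumors lay below sgScramble tumor 4 and above sgScramble tumors 1 and 5.

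Among the other lists, 5 of 6 T cell markers were higher with edgeR (Cd3e, Cd3d, Cd3g, Trac and Cd4), all 6 with DESeq2 and 5 with limma-voom, which called Cd8a in place of Cd4. At an unadjusted p below 0.05 all 6 were higher with edgeR, and Cd8a, the most abundant, had an adjusted p of 0.0505 from edgeR. The summed CPM of the T cell list was 75.3, 124.2 and 97.5 in the sgScramble tumors and 263.9, 169.3, 229.6 and 213.4 in the icOVA tumors, with no overlap. Neutrophil, fibroblast and endothelial markers had 0 genes past the threshold in edgeR's test of 4, 6 and 3 tested, with 1, 0 and 3 at an unadjusted p below 0.05. DESeq2 called 0, 0 and 3 of them and limma-voom 0. Their most abundant genes were Csf3r, Col1a1 and Pecam1, and the neutrophil marker Ly6g had no count in 1 of the tumors. The summed CPM of the fibroblast list was 4556, 10699 and 4297 in the sgScramble tumors and 16470, 3860, 23292 and 5879 in the icOVA tumors. Tumors 15 and 18 were high and tumor 16 low in this sum, and the groups overlapped. The neutrophil sums were 53.9, 108.9 and 53.4 in the sgScramble tumors and 100.9, 124.4, 85.9 and 110.2 in the icOVA tumors, and the endothelial sums 149.8, 209.9 and 131.3 against 341.2, 169.9, 407.6 and 262.6. Both overlapped between the groups.

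Outside the 10 genes, those most like H2-Aa over the 7 tumors, by the mean absolute difference of log2 CPM centered on each gene's own mean, were Lpcat2 (0.02), Gm9816 (0.04), Urb1 (0.05), Rnpep (0.05) and D16Ertd472e (0.06). Within the 10 genes, H2-Eb1 differed from H2-Aa by 0.03 and H2-Ab1 by 0.05 in this measure, about as close as the nearest genes of the whole table. Most like H2-DMa were Alas1 (0.04), Psme2 (0.04), Rnaset2b (0.05), Pno1 (0.05) and Ddx39 (0.06), while Cd74 differed from H2-DMa by 0.04. H2-Ob, with only 96 to 181 counts per tumor, followed no other class II gene closely. Its nearest genes, Gm49396, Gm13743, Stx3, Gm36266 and 1700025G04Rik, differed from it by 0.08 each, and the nearest of the other 9 class II genes, H2-Aa, by 0.20. This was not particular to H2-Ob, as H2-DMb2 differed from H2-Aa, H2-DMa, H2-Ob and Ciita by 0.24, 0.18, 0.33 and 0.19. Most like Ciita were Ripk1 (0.03), Erap1 (0.04), Nup153 (0.04), Chd1 (0.04) and Emp1 (0.04). H2-DMb1, the class II gene nearest to Ciita, differed from it by 0.10, and the classical chains by 0.14 to 0.16. With 7 tumors and 17489 genes, some genes lie this close to any profile.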

How the data were processed

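The authors deposited raw counts per gene for 7 tumors, without normalization. The build mm10 is named in the submitters' processing notes, and the aligner, counter, annotation and strand setting are not given in the sources used here. The labels name polyA RNA, whereas the methods name a stranded total RNA kit with single reads of 76 bases. Of the row identifiers, 22414 had a symbol in the GENCODE M21 name table, 21803 of them with the same version, so another release may have been counted. Each label is a separate tumor, and no pair of libraries within a group agreed within sampling noise.

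The counts went into edgeR 4.0.16 under R 4.3.3. Low counts were removed with filterByExpr (min count 10, min total 15), leaving 17489 genes tested, and TMM gave the library scaling. A quasi-likelihood fit with group as its single term was used, with Benjamini-Hochberg adjustment across those genes at a threshold of 0.05. The p values measure spread between tumors. The SE is the log2 fold change divided by the square root of F. Log2 CPM has a prior count of 2, and RPKM uses the union of annotated exons. The fit was tested on simulated data. Alternatives were DESeq2 1.42.0, limma-voom (limma 3.58.1), other scalings (total counts, upper quartile, Ptprc, Tbp), filters and prior counts, robust dispersion, H2-DMb1 summed with H2-DMb2, smaller gene lists, and each tumor left out.

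The 10 genes and all lists were chosen with earlier results of these data known. Named besides the 10 genes are OVA, listed pathway genes past the threshold or most abundant in their list (not for the partners of Ciita), of each marker list the most abundant gene, those past the threshold and those with no count in a tumor, the 5 genes most like H2-Aa, H2-DMa, H2-Ob and Ciita, and the tested genes of the chromosome 17 stretch. Also named are Creb1 and Rfxank, called by DESeq2, Rfxank, Ctsd and Cd79b, where 1 icOVA tumor stood apart, BC051537 and Gm20513, which overlap 2 of the 10 genes, and Tbp, used for scaling. The proteins of H2-DMb1 and H2-DMb2 were not compared here, and shared 76-base stretches were counted instead. Promoter stretches of H2-DMb1 and H2-Oa overlap annotated exons and are not printed.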

Additional observations from a re-analysis of the deposited data

Results flagged for a closer look

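In groups of 4 tumors, 136 values were examined for a tumor far from the other 3, by its gap to the nearest tumor over the whole range of the group, and 5 exceeded the critical value of Dixon's test. Chance gives about 1 in 20. Rfxank was lower in icOVA tumor 15, at 4.05 log2 CPM against 4.18, 4.17 and 4.17 in tumors 16, 18 and 2 (gap over range 0.945). Ctsd was higher in tumor 18, at 10.12 log2 CPM against 9.80, 9.78 and 9.77 in tumors 15, 16 and 2 (0.930). Cd79b was lower in tumor 16, at -0.26 log2 CPM against 1.25, 1.148 and 1.06 in tumors 15, 18 and 2 (0.871). H2-Ob minus H2-DMb1 was lower in tumor 16, at -5.68 on the log2 CPM scale against -4.97, -5.00 and -4.99 in tumors 15, 18 and 2 (0.963). The classical genes relative to the cancer cell markers were higher in tumor 18, at 2.45 against 1.41, 1.45 and 1.497 in tumors 15, 16 and 2 (0.918). The sgScramble group has 3 tumors and was not examined in this way.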

How the results depend on the processing

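With DESeq2, 1558 genes were higher and 1278 lower over the whole table, 5 of the 10 class II genes (H2-Aa, H2-Ab1, H2-Eb1, Cd74 and H2-DMa) and 16 pathway genes were higher, and 2 pathway genes were lower. The class II genes called were 0 with limma-voom, robust dispersion, no low-count filter, and scaling to library totals or upper quartiles, each with 6 higher at an unadjusted p below 0.05, beside 518, 577, 539, 566 and 572 genes called higher over the whole table and 2180, 2317, 2631, 2150 and 2255 higher unadjusted, and the adjusted p of H2-DMa ran from 0.0509 to 0.0615 in these. With at least 10 counts in every tumor, total counts or the upper quartile, 1 pathway gene, March8, was lower. With each tumor left out in turn (edgeR), genes higher ran from 0 to 1014 and lower from 0 to 716, class II genes higher from 0 to 4 and pathway genes higher from 0 to 12 and lower from 0 to 1. No gene passed when sgScramble tumors 1 or 5 or icOVA tumor 15 were absent. The cause was not tested. Scaled to Ptprc, the log2 fold changes were -0.65 (H2-Aa), -0.67 (H2-Ab1), -0.69 (H2-Eb1), -0.73 (Cd74), -0.73 (H2-DMa), -0.86 (H2-DMb1), -0.91 (H2-DMb2), -0.52 (H2-Oa), -0.72 (H2-Ob) and -0.87 (Ciita), a reversal that the rise of Ptprc builds in. Scaled to Tbp, all 10 were above 0 and H2-DMa had an adjusted p of 0.0685 (edgeR). Differences between accessory and classical genes moved by less than the SD between tumors under each alternative run. So did the classical genes relative to macrophage, dendritic, B and cancer cell markers, where only the removal of the most abundant marker and, chosen after seeing the data, of each tumor was tried. Counts of 57 to 181 limit the precision of H2-Oa and H2-Ob. No paired analysis was possible because no tumor number occurs in both groups.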
